A study of Mus musculus with 43 samples.

Results

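DNA methylation was examined at isolated unmethylated sites, a class of 219 CCCGGG sites among the 173449 sites listed for the mouse genome. A site belonged to the class when no other listed site lay within 1000 bp on the same chromosome (1 to 19) and its mean methylation in epithelium of mice on 2 mg folic acid (FA) was under 20%, over at least 4 of 7 libraries with 20 or more reads. The members were therefore selected on their values in the 2 mg FA libraries, and those values are given below as a description only. Sites are named by their mm9 position as deposited, and no genes or sequences are given because the reference at hand is a later build.

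All mice were Swiss Webster and received azoxymethane (AOM), a colon carcinogen, at 7 weeks of age. From 9 weeks they received 4 cycles of dextran sulfate sodium (DSS), each with 7 days on water holding 2% DSS and 14 days on plain water. From 11 weeks they ate chow with 0, 2 or 8 mg FA per kg for 16 weeks, and they were killed at 27 weeks. Cells were cut by laser from fixed, paraffin-embedded colon, either non-dysplastic epithelium (ND) or polypoid dysplasia (P), and the control diets thus share the carcinogen and the colitis with the supplemented ones. The labels call the ND cells of both cohorts epithelium, but the study also cut some ND tissue together with its lamina propria, the connective tissue that holds immune and stromal cells, and the labels do not say which libraries these are. The first cohort held 5 libraries of 0ND, 7 of 2ND and 6 of 8ND, and the second cohort held 6 of 0ND, 6 of 0P, 6 of 8ND and 7 of 8P, with both lesions of mouse 1856 among the 8P libraries. The 2 lesions are numbered by their sample titles, but the names of the deposited data go the other way round, so that which lesion is which is uncertain below. The 0P libraries came from the mice of the second-cohort 0ND libraries and the 8P libraries from those of 8ND, and 8 mice gave epithelium libraries in both cohorts. All 5 comparisons below ask how diet or dysplasia goes with methylation.

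CCCGGG is a palindrome with a CpG at its center, and CpGs that lie in dense clusters near gene starts are typically free of methylation while scattered CpGs are typically methylated. Folate supplies the methyl groups that DNA methyltransferases place on such CpGs. In the assay (DREAM), SmaI cuts unmethylated sites and XmaI then cuts the methylated remainder, so that the first bases of each read tell which enzyme cut. Fragments were taken from gel slices covering 250 to 500 bp, adapters included.

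Isolation and coverage were closely tied. Of the 105429 isolated sites, 790 (0.749%) had 20 or more reads in at least 4 of the 2ND libraries, against 21715 of 59467 sites with a listed neighbor (36.5%). Coverage was 67.2% among sites whose nearest listed site was 250 to 500 bp away, 1.58% at 500 to 1000 bp, and 0.868% at 1000 to 2000 bp. Beyond 10000 bp it was 0.584%. The 219 members are thus a small, coverage-selected sample of the isolated sites.

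**Figure D1:**
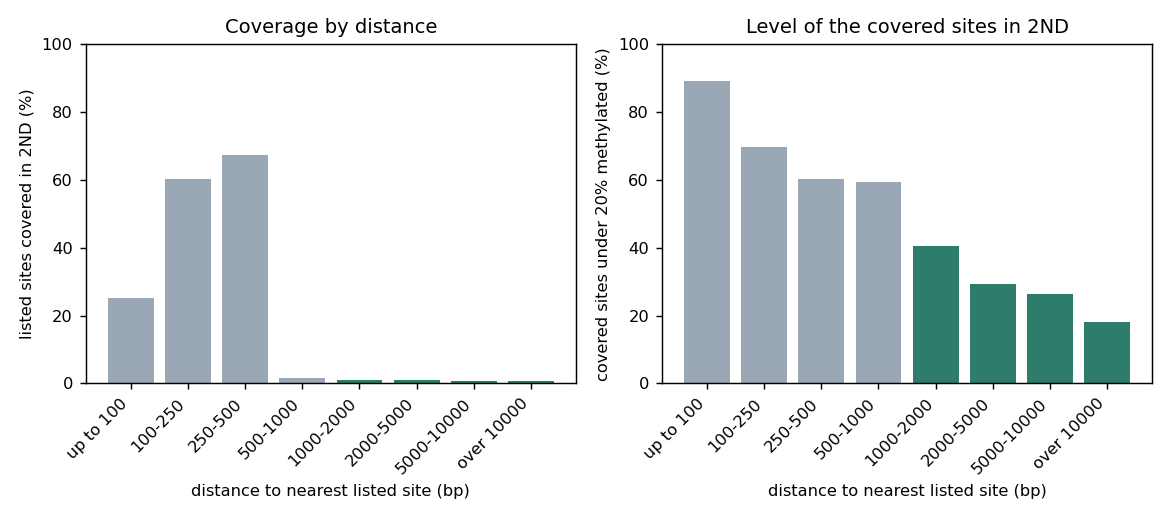
Left, percent of listed sites on chromosomes 1 to 19 that had 20 or more reads in at least 4 of 7 2ND libraries, by distance to the nearest listed site in bp. Right, percent of those covered sites with a 2ND mean under 20%. Green bars are isolated sites. Coverage drops from 67.2% at 250 to 500 bp to 1.58% at 500 to 1000 bp, and the share under 20% falls from 89.1% up to 100 bp to 18.2% beyond 10000 bp.

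Most covered isolated sites were methylated. Members made up 27.7% of the 790, while 227 sites lay between 20% and 80% and 344 above 80%. Among covered sites with a neighbor, 71.9% were under 20%, a total of 15611 unmethylated sites. The share under 20% fell along the distance bins, from 40.4% of covered sites at 1000 to 2000 bp to 29.4% at 2000 to 5000 bp, 26.3% at 5000 to 10000 bp and 18.2% beyond.

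The members were spread over all 19 chromosomes, with 4 to 21 each. Chromosomes 6 (21 members of 43 covered isolated sites, 48.8%) and 4 (20 of 44, 45.5%) had the highest member shares. The nearest listed site was 1004 to 44110 bp away, with a median of 4170 bp, against 5182 bp for isolated sites of intermediate methylation and 5521 bp for highly methylated ones. Only 6 members had another member within 10000 bp. For 132 members the nearest listed site lay within 5000 bp, and it was itself covered in 16 cases and under 20% in 13 of them. For the isolated highly methylated sites the nearest site was covered in 13 cases and under 20% in 7.

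The reads behind each value were few. Over the 2ND libraries the median member had 28 reads (interquartile range of the members 22 to 60), and 42 of the 219 reached 100. At 20 reads, 1 methylated read is 5% raw, which becomes 4.96% to 17.6% after the authors' adjustment with spiked standards. That adjustment multiplied the odds of methylation at every site by 1 factor per library, from 0.992 to 4.04. A gap of 5 points between libraries at a shallow member can therefore be a single read, and adjusted percentages are used below unless raw ones are named.

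Reads on members differed between kinds of library. The members with 20 or more reads numbered 49 to 96 in the 6 second-cohort 0ND libraries (median 64.5), 113 to 203 in the 6 0P libraries (median 170) and 192 to 208 in the 7 8P libraries (median 204). In second-cohort 8ND they numbered 44 to 192 (median 73), the 192 being the library of mouse 1856. In the first cohort the ranges were 44 to 213 in 0ND, 65 to 208 in 2ND and 38 to 150 in 8ND. The polyp libraries stood above all libraries of 0ND in the second cohort without overlap.

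All isolated sites together showed the same in 0P. They took 3.75% to 8.54% of site reads in second-cohort 0ND and 12.0% to 16.8% in 0P, means 5.67% ± 1.70 (SD, n = 6) and 15.2% ± 1.73 (SD, n = 6). The difference of 9.51 points had an exact permutation p of 0.00216, the smallest this unpaired test can give, and 0.0119 after Benjamini-Hochberg adjustment over 11 tests of read measures. In 8P the share was 14.7% ± 6.07 (SD, n = 7) and in 8ND 11.2% ± 4.88 (SD, n = 6), a difference of 3.51 points within the spread (exact permutation p = 0.304). Without the 8ND library of mouse 1856 that difference was 4.93 points (exact permutation p = 0.130). Reads per member were higher in polyps on both diets. The median reads per member averaged 46.8 ± 18.4 (SD, n = 6) in 0P and 9.67 ± 4.32 (SD, n = 6) in 0ND (exact permutation p = 0.00216, Benjamini-Hochberg 0.0119). They averaged 74.9 ± 17.0 (SD, n = 7) in 8P and 20.3 ± 31.0 (SD, n = 6) in 8ND (exact permutation p = 0.00641, Benjamini-Hochberg 0.0235), and 7.80 ± 4.44 (SD, n = 5) in 8ND without the library of mouse 1856 (exact permutation p = 0.00126, the smallest that unpaired test can give). These tests of reads took libraries as unpaired, although polyps and epithelium share mice. They counted both lesions of mouse 1856 as separate libraries. Reads per member were not corrected for library size. Median site reads were 4.63e+06 in 0P and 3.75e+06 in 0ND, and 9.96e+06 in 8P and 3.01e+06 in 8ND. At unmethylated sites with a neighbor, median reads were 137 in 0P and 107.5 in 0ND, and 297 in 8P and 62.5 in 8ND. The coverage of members thus differed between polyp and epithelium libraries on both diets, with library size included. Its part in the methylation comparisons was not tested.

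**Figure D2:**
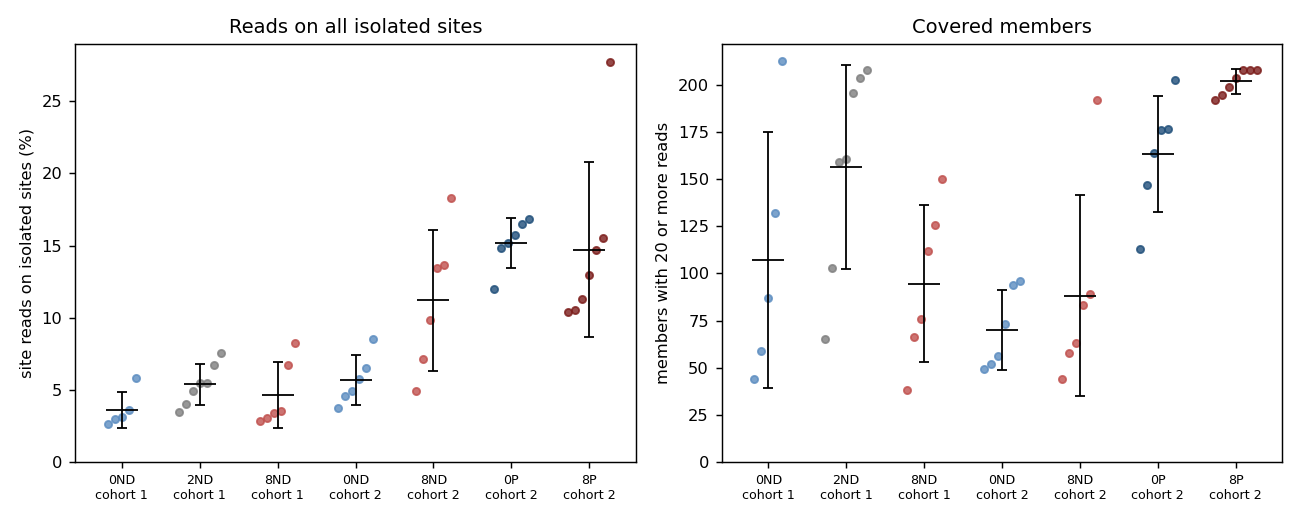
Left, percent of site reads that fell on isolated sites in each library. Right, number of the 219 members with 20 or more reads. Points are libraries, black marks are group means and error bars are SD. The 0P libraries (12.0% to 16.8%) lie above all second-cohort 0ND libraries (3.75% to 8.54%).

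In 2ND, on which the members were chosen, 90 of the 219 (41.1%) had a mean of exactly 0, and 147 (67.1%) were under 5%. The median was 1.78% and the highest mean 19.6%. Just inside the threshold lay chromosome 6 position 86753605 and chromosome 2 position 71643461, both at 19.6%. Just outside lay chromosome 3 position 108820025 at 20.8% and chromosome 12 position 109624816 at 21.4%.

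In the other groups, whose values the choice did not use, most members with data stayed low. Among members with 20 or more reads in at least 3 libraries of a group, 68.3% of 82 were under 5% in first-cohort 0ND and 70.8% of 96 in 8ND. In the second cohort 75.3% of 73 were under 5% in 0ND, 75.6% of 86 in 8ND, 67.4% of 190 in 0P and 60.4% of 217 in 8P. These sets of members differ between groups because coverage does. Means of 20% or more were found at 6 members in first-cohort 0ND, 7 in 8ND, 6 in second-cohort 0ND, 5 in 8ND, 12 in 0P and 15 in 8P, which is 5.81% to 8.22% of the members covered. Unmethylated sites with a neighbor reached 20% at 0.771% to 1.19% of sites in the same groups. These sites started lower, with 91.0% under 5% in 2ND against 67.1% of members. Their median reads were 2.27 to 25.7 times those of members within a library. The part of depth and of the level in 2ND was not tested.

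Values of 0 were common. Of 5542 member values with 20 or more reads, 3725 (67.2%) had no methylated read, against 80.0% at unmethylated sites with a neighbor, whose read depth is greater. No methylated read was seen in any such library at 47 members.

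The 29 members with 20 or more reads in at least 40 of the 43 libraries were sorted by their highest group mean, with cuts at 1% and 5%. At 15 of them the mean of every group was under 1%, at 5 the highest group mean was between 1% and 5%, and at 9 it was 5% or more. Chromosome 4 position 147818540 had 0 methylated reads of 11463 over all libraries, which allows a share of up to 0.0262%. Chromosome 4 position 118032692 had 2 methylated of 18532 reads, both in 1 library. Intervals and limits cover counting error only, since PCR copies were not marked. At chromosome 1 position 172145235, 26 of 32124 reads were methylated, in 4 libraries, and the highest library was at 3.39%.

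The 9 members with a group mean of 5% or more differed widely between libraries. Over all groups, single libraries at chromosome 4 position 154235312 ran from 0 to 81.8%, with group means of 8.47% to 20.9%. At chromosome 10 position 12573208 they ran from 0 to 63.9% and group means from 11.7% to 25.9%. At the 15 members with every group mean under 1%, no single library was above 5.68%.

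**Figure D3:**
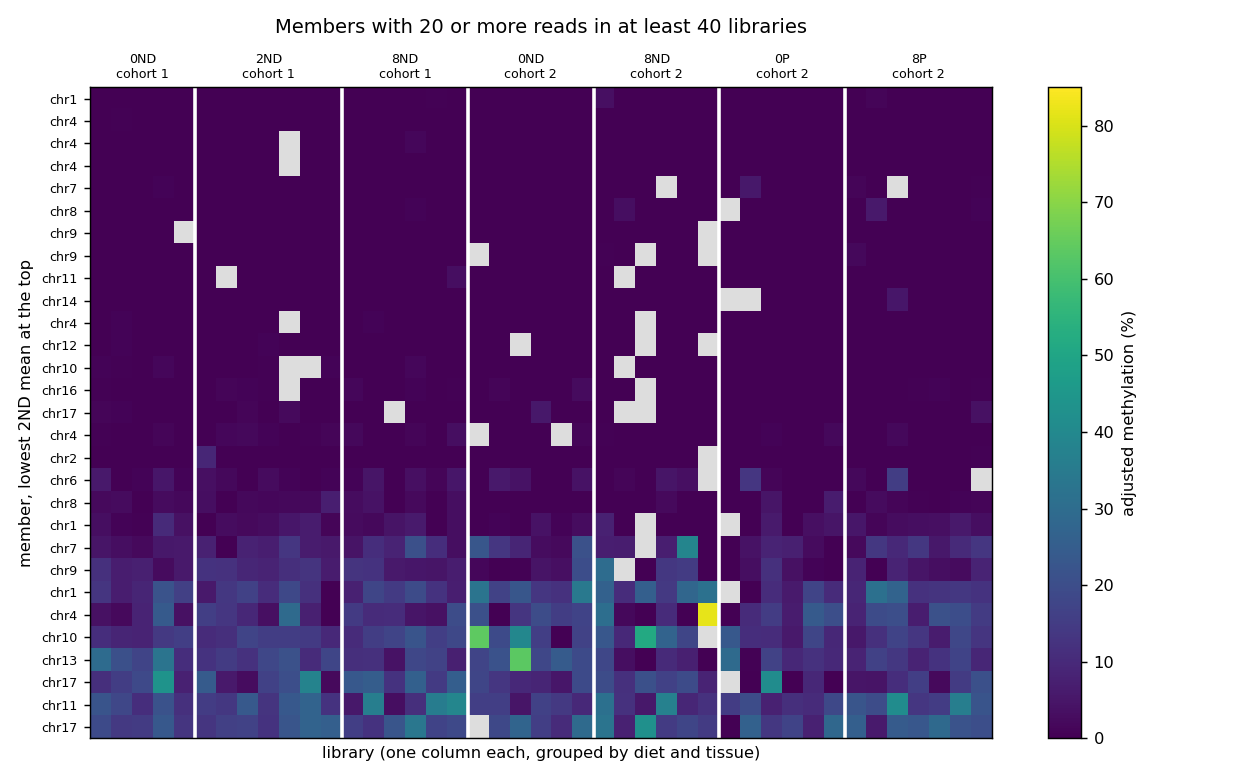
Adjusted methylation in percent at the 29 members with 20 or more reads in at least 40 libraries, 1 row per member ordered by 2ND mean and 1 column per library. Grey cells have under 20 reads. The upper 15 rows have group means under 1%, and the lowest 9 rows vary between libraries.

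Diet was first compared in non-dysplastic epithelium. A site entered when each library of the 2 groups had 20 or more reads there. It was called when the group means lay more than 5 points apart and a two-sided equal-variance test gave p under 0.05 before adjustment, after the study's criteria. In the first cohort, 8ND against 0ND, 28 members could be tested and 191 could not. Of the 28, 1 was called lower and 0 higher in 8ND, where 3.82% of all 13475 sites tested were called lower and 0.594% higher. The mean difference over the 28 was 0.310 points, 8 lower, 15 higher and 5 equal, against -0.770 over all sites. No site in the whole table reached an adjusted p of 0.05 with Benjamini-Hochberg correction, and 2 members had an unadjusted p under 0.05 in that test.

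In the second cohort 14 members were tested, and 1 was called lower and 0 higher in 8ND, against 1.31% lower and 0.145% higher of 9666 sites. The mean difference over the 14 was -0.233 points, 1 lower, 7 higher and 6 equal, and -0.668 over all sites. Single calls of 28 and of 14 are too few to set beside these shares. Unmethylated sites with a neighbor were called at 0.742% in the first cohort and 0.236% in the second.

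The member called in both cohorts was the same, chromosome 13 position 98214146, which lies 9548 bp from the nearest listed site and had 31 to 1686 reads in the epithelium libraries compared. Its groups overlap, so the rule for naming sites did not choose it and it is named here because its values were seen. First-cohort 0ND libraries were at 11.3%, 17.4%, 20.9%, 29.8% and 32.8%. First-cohort 8ND ran from 4.03% to 18.1% (median 11.6%). Every 8ND library lay below the 3 highest of 0ND, and the groups overlap below that.

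The means of this member were 22.5% ± 8.87 (SD, n = 5) in 0ND and 11.6% ± 5.37 (SD, n = 6) in 8ND, a difference of -10.8 points (exact permutation p = 0.0433, Benjamini-Hochberg 0.795 over all sites). Leaving out any 1 library left the difference between -13.6 and -8.23 points, with exact permutation p of 0.0143 to 0.0794. The p went over 0.05 without any of the 8ND libraries but that of mouse 1848, and without that of mouse 1807 or 1809 or the highest library of 0ND. In the second cohort 0ND ran from 17.5% to 63.5% (median 20.3%) and 8ND from 0 to 18.2% (median 5.29%), and the highest 8ND library, that of mouse 1856, lies above the 2 lowest of 0ND. The other five 8ND libraries lie below every 0ND library. The means were 27.3% ± 17.9 (SD, n = 6) and 6.46% ± 7.02 (SD, n = 6), a difference of -20.9 points (exact permutation p = 0.00649, Benjamini-Hochberg 0.990).

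The 63.5% came from mouse 1808, where 78 of 125 reads were methylated (62.4% raw, 95% Wilson interval 53.7 to 70.4). With that library left out, the groups differed by -13.6 points (exact permutation p = 0.00866). Leaving out any 1 library gave an exact permutation p of 0.00216 to 0.0130. In second-cohort 0ND the SD of 17.9 points was above the counting error, 3.81 points per library on average, with mouse 1808 included. The other 0ND libraries there ran from 17.5% to 24.4%, and their spread alone was not set against counting error. In first-cohort 0ND the SD was 8.87 points, against a counting error of 2.435. For description, 2ND was at 15.3% ± 3.91 (SD, n = 7), 0P at 12.9% ± 9.68 (SD, n = 6) and 8P at 12.3% ± 3.73 (SD, n = 7), and the polyp of mouse 1808 was at 16.6%. Because 8 mice gave libraries in both cohorts, the second difference is no independent repeat of the first.

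Polyps were then compared with epithelium of the same mice. Between 0P and 0ND, 22 members were tested and 0 were called, while 4.79% of 11109 sites were called lower in 0P and 0.576% higher. None of the 22 had an unadjusted p under 0.05, and limma, the exact test per site and the quasi-binomial model also called 0. The mean difference was -1.64 points over the members and -1.68 over all sites, with 7 members lower, 4 higher and 11 equal. With each library centred on its mean over all tested sites, it was 0.0372 points over the members. The median member difference was 0, and differences ran from -14.4 to 1.90 points. Unmethylated sites with a neighbor had 55 lower and 20 higher calls of 8620 (0.870%).

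Between 8P and 8ND, 19 members were tested and 0 were called in that test or by the same 3 other tests, against 3.50% of 9969 sites lower and 1.63% higher. Of all sites the 3 other tests called 5.32%, 5.37% and 2.86%. Calls among 19 members are likewise too few to set beside these shares. None of the 19 members had an unadjusted p under 0.05. The mean difference was 0.170 points over the members (6 lower, 9 higher, 4 equal) and -0.457 over all sites. Without the 8ND library of mouse 1856, 1 of 19 members was called higher in 8P and the mean difference was 1.25 points. Of all sites 6.58% were called there in either direction. At unmethylated sites with a neighbor 3 were called lower and 78 higher of 7833. Of 10 members tested in both polyp comparisons, 1 was lower in both, 2 were higher in both, 1 moved in opposite directions and 6 were at a difference of 0 in at least 1 of them. No member was called in both. Of the 8232 sites with enough reads in every second-cohort library, 119 were called in both in the same direction. The 10 members are too few to set beside that share.

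More members could be compared between the polyps of the 2 diets. Of 63 tested between 8P and 0P, 4 were called higher in 8P (6.35%) and 0 lower, where 1.68% of 13772 sites were called higher and 0.879% lower. The mean difference over the members was 1.57 points, 27 higher, 13 lower and 23 equal, against 0.310 over all sites and 0.189 over unmethylated sites with a neighbor. Of those neighbors 0.936% were called higher and 0.0488% lower. The median member difference was 0, and no member passed Benjamini-Hochberg adjustment. In raw percent 2 of the 63 members were called higher, and the quasi-binomial model called 1 lower and 0 higher. Of all sites 2.43% were called in raw percent and 2.68% by that model, in either direction.

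Depth and adjustment moved with this comparison. The median reads per member averaged 74.9 ± 17.0 (SD, n = 7) in 8P and 46.8 ± 18.4 (SD, n = 6) in 0P (exact permutation p = 0.0198, Benjamini-Hochberg 0.0545). The adjustment factor ran from 1.16 to 1.52 in 8P and from 0.992 to 1.21 in 0P. Their part in the 4 calls was not tested.

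None of the 4 members had groups without overlap, and they are likewise named because their values were seen. Chromosome 4 position 133611986 was at 0 to 36.6% in 8P (median 16.8%) and 0 to 19.0% in 0P (median 1.07%), with 1 library of 8P at 0 and 1 of 0P far above the other five. The means were 21.2% ± 13.7 (SD, n = 7) and 4.01% ± 7.47 (SD, n = 6), a difference of 17.2 points (exact permutation p = 0.0286, Benjamini-Hochberg 0.721). Leaving out 1 library gave 14.6 to 20.7 points, and the exact permutation p reached up to 0.0556 and went over 0.05 without the 8P libraries 1830, 1841 or 1856 lesion 2, or any 0P library but that of mouse 1820. Second-cohort epithelium had too few reads here for a value in all but 1 library.

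Chromosome 4 position 148211693, on the same chromosome but far from it, was at 5.88% to 22.9% in 8P (median 12.7%) and 0 to 11.9% in 0P (median 0). Only 2 libraries of 0P were above 0, and both lie within the range of 8P. The difference was 10.1 points between 13.4% ± 6.93 (SD, n = 7) and 3.26% ± 5.23 (SD, n = 6), with an exact permutation p of 0.0181 that stayed between 0.0101 and 0.0328 without any 1 library.

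Chromosome 7 position 56451097 was at 2.27% to 13.8% in 8P (median 10.2%) and 0 to 8.44% in 0P (median 3.44%). It differed by 6.05 points (exact permutation p = 0.0280), and by 4.37 points in raw percent (exact permutation p = 0.0670). Leaving out 1830, 1848 or 1858 of 8P, or 1805 or 1839 of 0P, gave exact permutation p of 0.0519 to 0.0581. In epithelium of the second cohort its means were 11.8% ± 8.78 (SD, n = 6) in 0ND and 12.0% ± 15.3 (SD, n = 5) in 8ND. It was tested between 0P and 0ND and not called, with a difference of -8.04 points and an exact permutation p of 0.0714. Against the 5 libraries of 8ND with enough reads, 8P had a mean difference of -2.15 points, within the spread (exact permutation p = 0.862). One 8ND library, that of mouse 1848, was at 38.8%.

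**Figure D4:**
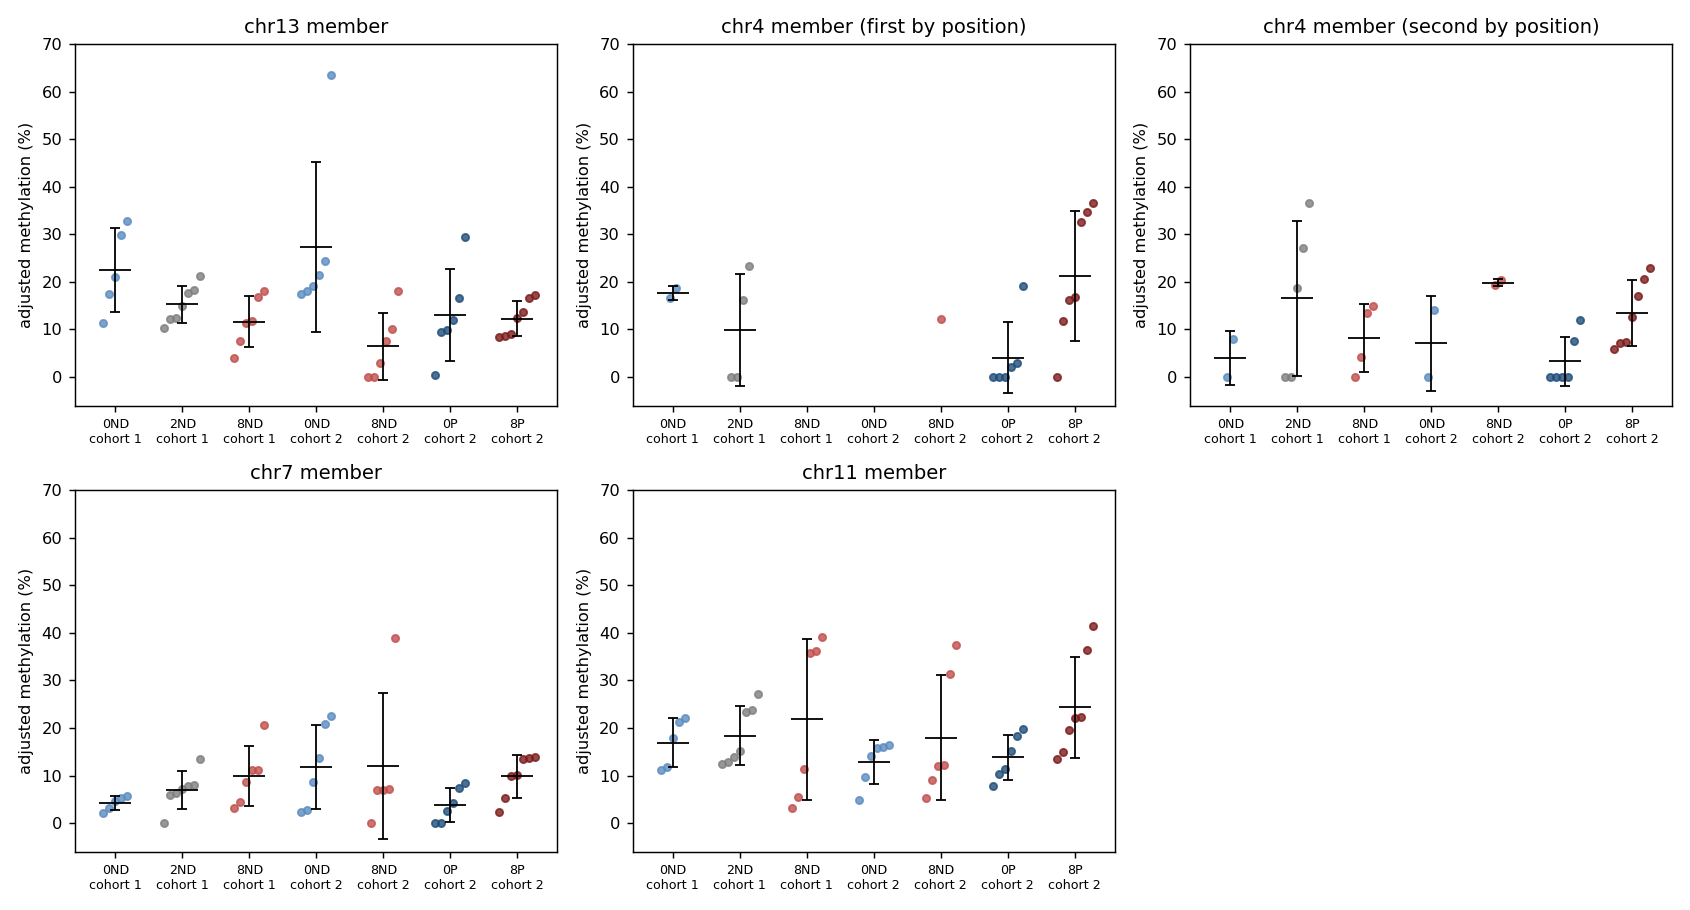
Adjusted methylation in percent at the 5 members called in any comparison with 20 or more reads in each of its libraries, by group. Points are libraries with 20 or more reads, black marks are means and error bars are SD. The chromosome 13 member is lower in 8ND than in 0ND in both cohorts, and the other 4 are higher in 8P than in 0P with overlap in every panel.

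Chromosome 11 position 108873185 was the deepest member, with 192 to 19701 reads per library, and its nearest listed site is 28942 bp away. It was at 13.6% to 41.4% in 8P (median 22.0%) and 7.72% to 19.8% in 0P (median 13.3%). The difference was 10.5 points between 24.3% ± 10.6 (SD, n = 7) and 13.8% ± 4.76 (SD, n = 6) (exact permutation p = 0.0414), and 7.08 points in raw percent (exact permutation p = 0.126). Without 1 of the 8P libraries 1800, 1841, 1856 lesion 2 or 1858, or the 0P libraries 1805, 1808, 1809 or 1820, the exact permutation p was 0.0563 to 0.105. In 8P its counting error was 0.917 points per library, against the spread of 10.6 points between libraries.

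At this member the epithelium libraries of the same mouse were set side by side. In the first and second cohort, epithelium of mouse 1841 was at 36.3% and 37.5%, that of mouse 1856 at 35.8% and 31.3%, that of mouse 1830 at 5.41% and 5.38%, and that of mouse 1848 at 11.5% and 9.09%. Mouse 1858 departed from this, with 39.1% and 12.2%. The 3 mice on 0 mg FA were at 22.1% and 15.9% (1807), 18.0% and 16.4% (1809), and 11.8% and 14.1% (1820). Over the 8 mice the 2 libraries of a mouse differed by 5.62 points on average, against 11.6 points over all 720 pairings of mice within the same diet.

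The exact permutation p over those pairings was 0.0167 for this member, and 1 after Benjamini-Hochberg adjustment over 9527 sites with 20 or more reads in all 16 libraries. Among those sites 1.27% had an exact p under 0.05, and among the 16 members 1 did. The other 15 include 2 at 0 in every library. Among the polyps, the lesion of mouse 1841 was at 41.4%, that of mouse 1848 at 13.6%, that of mouse 1858 at 22.0% and that of mouse 1830 at 19.6%. The 2 lesions of mouse 1856 were at 15.0% and 36.4%.

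Requiring 20 reads in at least 3 libraries of each group, with shallower libraries left out at that site, brought in more members at the cost of smaller groups. Of 65 members 2 were called between 8ND and 0ND in the first cohort (4.75% of all sites), and 2 of 71 in the second (1.77%). Between 0P and 0ND 2 of 70 were called (5.25%), between 8P and 8ND 1 of 86 (5.53%), and between 8P and 0P 6 of 190 (3.56%). The mean difference over the 190 was 0.958 points, with 84 higher, 41 lower and 65 equal.

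These calls added 7 members, 3 of them with groups that do not overlap among libraries with 20 or more reads, chosen after their values were seen. The share of all sites with such groups is not given here, so the 3 are a description only. Chromosome 4 position 117891269 was at 19.6% to 30.7% in 4 libraries of 0P and 0 to 16.1% in 5 of 0ND, a difference of 19.1 points (exact permutation p = 0.0159). Of the libraries left out for depth, 0P of mouse 1808 was at 10.9% (2 of 19 reads), within the 0ND range. The 0ND library of mouse 1805 was at 0 (of 7 reads). Chromosome 4 position 132511556 was at 0 in 4 libraries of 0P and at 3.04% to 21.5% in 7 of 8P (exact permutation p = 0.0182). Those 4 libraries of 0P had 20 to 51 reads. The 0P libraries left out for depth were at 11.0% (mouse 1807, 1 of 9 reads) and 31.6% (mouse 1808, 4 of 13 reads). Chromosome 11 position 99985306 was at 24.6% to 31.2% in 3 libraries of 0ND and 0 to 14.3% in 3 of 8ND. The exact permutation p of 0.100 there is the smallest that design allows. Of its libraries left out for depth, 8ND of mouse 1841 was at 30.9% (3 of 16 reads), within the 0ND range. The remaining left-out 8ND libraries were at 0 (of 11 and 10 reads). A left-out 0ND library was at 20.2% (1 of 17 reads), between the ranges, and the other had no reads. Among the 4 with overlap, chromosome 1 position 137114402 was at 9.02% ± 6.42 (SD, n = 5) in 0P and 22.0% ± 9.65 (SD, n = 6) in 0ND (exact permutation p = 0.0325), but without 1807, 1808, 1809 or 1839 of 0P the exact permutation p was 0.0524 to 0.0714. Chromosome 13 position 45098178 was at 29.4% ± 11.7 (SD, n = 4) in second-cohort 8ND and 5.38% ± 8.04 (SD, n = 4) in 0ND (exact permutation p = 0.0571). Its left-out 8ND libraries, of mice 1800 and 1841, were at 0 (of 6 and 12 reads). Its left-out 0ND libraries were at 62.3% (mouse 1809, 4 of 7 reads) and 0 (mouse 1839, of 5 reads). The remaining members with overlap were lower in the first-named group: chromosome 15 position 77912638 by 11.0 points in 8P against 3 libraries of 8ND (exact permutation p = 0.0250), and chromosome 17 position 10231164 by 32.9 points in 8P against 3 libraries of 0P (exact permutation p = 0.0167). At the chromosome 15 member, leaving out any of the 3 libraries of 8ND gave an exact permutation p of 0.0556 to 0.0833, and the difference was -8.09 points without that of mouse 1800. At the chromosome 17 member the difference was -20.03 points without the 0P library of mouse 1839 and -46.4 without that of mouse 1820. There the exact permutation p was 0.0556 without either 1839 or 1809 and 0.0278 without 1820.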

How the data were processed

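Reads were mapped by the authors, whose processing notes name Bowtie2, SAMtools and mm9. Versions are not given in the sources used here, and the study's methods name the human genome. The authors deposited counts of methylated and unmethylated reads per site, the raw methylation percent and a percent adjusted with 18 spiked standards. Site reads per library ranged from 1488920 to 16923453. Raw percentages were checked against the read counts, and 0 pairs of libraries held identical counts.

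Analyses used Python 3.11.15, numpy 2.4.6, scipy 1.17.1, pandas 2.3.3 and limma 3.58.1 in R 4.3.3. The equal-variance, exact permutation and quasi-binomial tests between groups were first run on simulated data. The simulation did not include limma or the test over pairings of mice. Groups came from the sample labels. Polyps and epithelium are paired because they share mice, and deviations of the same mouse correlated by 0.0297 (0P and 0ND) and 0.0747 (8P and 8ND) on average. The members, the lists and the naming rule (up to 3 called members per comparison without overlap) were chosen with earlier results of these data known. By that rule no member called with full coverage was named. The alternatives are given in the closing section, and those leaving out 1 library at a named member or in the reads per member of 8P and 8ND were chosen after seeing the data. The labels give no processing batch beyond the cohort.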

Additional observations from a re-analysis of the deposited data

Results flagged for a closer look

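Of 49 sets of library values in groups of 4 to 10, 7 held a library far from the rest of its group, judged by its gap to the nearest other value, where chance alone flags about 1 in 20. The 8ND library of mouse 1856 in the second cohort stood apart in both its mean over covered members, 9.45%, and its median of 83 reads per member. Among the 8P libraries, mouse 1800 had the lowest mean over covered members at 3.36%, and mouse 1830 had 27.7% of its site reads on isolated sites. At single members, the library of mouse 1808 in second-cohort 0ND was at 63.5% at chromosome 13 position 98214146. The library of mouse 1820 in 0P was at 19.0% at chromosome 4 position 133611986, and that of mouse 1848 in second-cohort 8ND was at 38.8% at chromosome 7 position 56451097.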

How the results depend on the processing

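Few members could be tested, so 1 call more or less moved most shares of members called. Between 8ND and 0ND in the first cohort the share was 3.57% and became 0 with the quasi-binomial model, Benjamini-Hochberg adjustment, members under 10% in 2ND, or without libraries with over 30% of reads on standards, and 10.7% after centring (1 lower, 2 higher). Of all sites 4.42% were called at first, 1.28% with the quasi-binomial model and 0 with Benjamini-Hochberg adjustment. Without those libraries 3.38% of all sites were called, and 4.15% after centring. Without 1 library the share of members ranged from 0 (without 1841 or the lowest 8ND library at the called member, or 1807 or 1809 of 0ND) to 6.90% (without 1820 of 0ND). Over all runs without 1 library, 3.21% to 4.80% of all sites were called. Without 1830 or 1858 of 8ND, or the highest 0ND library at the called member, the share of members stayed at 3.45% to 3.57%. In these runs the chromosome 13 call was lost and another member was called higher in 8ND. That was chromosome 7 position 56451097 without 1858 and chromosome 10 position 12573208 without either of the others. In the second cohort the share of members was 7.14% and became 3.57% at a coverage minimum of 10, 2.82% with 20 reads in at least 3 libraries per group, and 0 at a minimum of 50, with Benjamini-Hochberg adjustment, with members under 10% in 2ND or when libraries were kept only if their 100 deepest sites took under 8% of site reads. Of all sites 1.46% were called at first, 1.54% at a minimum of 10, and 1.77% with 3 libraries per group. At a minimum of 50 it was 0.985% of all sites, with Benjamini-Hochberg adjustment 0, and under the limit on the 100 deepest sites 1.84%. Between 0P and 0ND the share of members was 0 and became 2.86% with 3 libraries per group, where 5.37% and 5.25% of all sites were called. Between 8P and 8ND the share of members was 0 and became 2.44% at a minimum of 10, 1.16% with 3 libraries per group, 2.86% under that limit on the 100 deepest sites, and 5.26% without the 8ND library of mouse 1856. Of all sites 5.13% were called at first, and in the same order 5.62%, 5.53%, 4.07% and 6.58%. Between 8P and 0P the share of members was 6.35% and became 15.4% at a minimum of 50 (2 of 13 members), 3.16% with 3 libraries per group, 3.17% in raw percent, 1.59% with the quasi-binomial model (1 lower), and 0 with Benjamini-Hochberg adjustment. Of all sites 2.56% were called at first, and in the same order 2.00%, 3.56%, 2.43%, 2.68% and 0. The cause of these moves was not tested, except that the number of members or libraries entering changes by construction.

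The mean difference over members between 0P and 0ND, -1.64 points, moved to 0.0372 after centring and to -0.391 for members under 10% in 2ND. Between 8P and 0P the mean was above 0 under every alternative run (0.711 to 1.57 points), while for both epithelium comparisons and for 8P against 8ND it lay on either side of 0. A block for mouse number gave member means of -1.64 points between 0P and 0ND and 0.108 between 8P and 8ND, and 0 members were called in either, so the block changed no call of a member. With the block 5.14% and 4.97% of all sites were called. Averaging the 2 lesions of mouse 1856 changed no call count by over 1.5 times. Depth limits these results most by how few of the 219 members had 20 or more reads in every library of a comparison, 14 to 63.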
